A study of Homo sapiens with 8 samples.

Results

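The genes described here are the NADPH oxidases of the DUOX and NOX families with their partner proteins in DU145 prostate cancer cells. Members were taken by gene symbol, and all 9 (DUOX1, DUOX2, DUOXA1, DUOXA2, NOX1, NOX4, NOX5, CYBA and CYBB) were found among the 23391 genes of the count table. DU145 is an established human prostate cancer line. The family was chosen because DUOX2 mRNA was higher with Esrrb and lower with DY131 in these libraries, so DUOX2 is described below without a test.

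The study compared 4 groups with 2 RNA-Seq libraries each, 8 in all. All cells were DU145 cells that had been stably transfected, selected with Zeocin for 3 weeks and kept as pools. DU145-pc3.1 cells carried the empty vector pcDNA3.1, and DU145-Esrrb cells carried a vector that expresses Esrrb, the orphan nuclear receptor estrogen related receptor beta. Each pool was left untreated or was treated with 3 μM DY131, a synthetic ligand of this receptor, and the length of the treatment is not given in the sources used here. Medium with charcoal-stripped serum was used for the experiment. The 4 groups are named DU145-pc3.1, DU145-Esrrb, DU145-pc3.1+DY131 and DU145-Esrrb+DY131.

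NADPH oxidases move electrons across a membrane onto oxygen, which gives superoxide or hydrogen peroxide. DUOX1 and DUOX2 release hydrogen peroxide at the surface of epithelia such as those of the thyroid, airway and gut, and calcium ions switch them on. Each needs a maturation factor to leave the endoplasmic reticulum, DUOXA1 for DUOX1 and DUOXA2 for DUOX2. NOX1, NOX4 and CYBB, the oxidase subunit of phagocytes, are stabilised by the small membrane partner encoded by CYBA, whereas NOX5 works without that partner and is also switched on by calcium.

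The 4 DUOX genes lie together on chromosome 15 in the order DUOX2, DUOXA2, DUOXA1, DUOX1, and each oxidase starts head to head with its own maturation factor. On GRCh38 with the GENCODE 29 annotation, DUOX2 spans chr15:45092650-45114344 on the minus strand and DUOXA2 spans chr15:45114321-45118421 on the plus strand. DUOXA1 spans chr15:45117367-45129938 on the minus strand and DUOX1 spans chr15:45129933-45165576 on the plus strand. The reads themselves were mapped to hg18. The sequences between the paired RefSeq start sites are shown because each stretch is shared by an oxidase and its maturation factor. They are plus-strand sequences of GRCh38.p14, chr15:45114173-45114325 for the first and chr15:45129880-45129993 for the second, and TATAAA is in capitals.
DUOX2 and DUOXA2: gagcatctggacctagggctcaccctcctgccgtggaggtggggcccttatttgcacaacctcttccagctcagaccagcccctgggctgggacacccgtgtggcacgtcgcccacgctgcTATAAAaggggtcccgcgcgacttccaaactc
DUOXA1 and DUOX1: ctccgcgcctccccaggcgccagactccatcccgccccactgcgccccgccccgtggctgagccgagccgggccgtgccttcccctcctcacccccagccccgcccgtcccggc

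The DUOX2 and DUOXA2 stretch is 153 bases long with 63.4% G or C and 8 CpG. Its motif in capitals begins 32 bases before the DUOXA2 start site. The DUOXA1 and DUOX1 stretch is 114 bases long with 80.7% G or C and 13 CpG, and it lacks that motif, which was searched for after the sequence had been seen. The core of the estrogen related receptor response element, AAGGTCA, was searched on both strands in the RefSeq promoter windows, which run from 250 bases before a start site over its first 50 bases. None of the 12 windows of the 9 members held it, against 3.92% of 35116 windows over all genes. The motif in capitals was in 2 of the 12 windows, those of DUOX2 and DUOXA2, against 11.5% of all windows. The 2 windows overlap and hold the same copy. These matches describe letters only.

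Between 7858743 and 11551690 reads were counted on genes per library, and the lowest totals, 7858743 and 9054498, belonged to DU145-Esrrb+DY131. These 2 libraries also had the most genes without a read, 7551 and 7701, against 6515 to 6891 in the others. The 2 libraries of this group share a column heading, so they are called library a and library b and carry no replicate number. On ESRRB, the gene that was introduced, 104 and 99 reads were counted in DU145-Esrrb and 105 and 143 in DU145-Esrrb+DY131. The 4 libraries of the pc3.1 pool held 0 to 3 reads on it. The epithelial markers KRT8, KRT18, KRT19, EPCAM and CDH1 were detected in every library, with a summed level from 2503 to 3166 cpm. VIM, a mesenchymal marker, stood at 1523 to 2796 cpm and was highest in DU145-Esrrb+DY131. It was also higher in DU145-pc3.1+DY131, at 2208 ± 120 cpm, than in DU145-pc3.1, at 1683 ± 71.0 cpm (SD, n = 2 each). CDH1 was at 161 ± 5.81 cpm in DU145-pc3.1, 111 ± 4.60 in DU145-Esrrb, 95.9 ± 24.1 in DU145-pc3.1+DY131 and 67.8 ± 7.73 in DU145-Esrrb+DY131. From DU145-pc3.1 to DU145-Esrrb+DY131, mean KRT8 went from 1093 to 1622 cpm and KRT19 from 470 to 511 cpm. KRT18 went from 811 to 801 cpm and EPCAM from 103 to 78.5 cpm. KLK2 and KLK3, markers of prostate luminal cells, were at 0 in every library. No endothelial marker reached 1 cpm, and COL1A1 was the only one of 5 fibroblast markers that did.

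The oxidase genes were expressed at low levels. Per kilobase of transcript, the mean over the 4 groups was highest for CYBA at 6.27 RPKM, followed by DUOXA1 at 0.954 and DUOX1 at 0.769 RPKM. CYBB, DUOXA2, NOX5 and DUOX2 followed at 0.278, 0.277, 0.258 and 0.224 RPKM, and NOX4 and NOX1 were lowest at 0.153 and 0.127 RPKM. DUOXA1 and DUOX1 had no fixed order: DUOX1 was the higher in DU145-pc3.1, at 0.494 against 0.344 RPKM, and in DU145-Esrrb, at 1.26 against 1.08 RPKM, while DUOXA1 was the higher in both treated groups. The order below these genes rests on few reads. In the DU145-Esrrb libraries alone, for example, DUOX2 stood at 0.441 and 0.464 RPKM and DUOXA2 at 0.579 and 0.366 RPKM, which overlap.

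Genes below 1 cpm (reads per 1000000 counted) in 7 or more of the 8 libraries were left out of the tests, and 13856 genes stayed. Of the 9 members, 5 passed, namely DUOX1, DUOX2, DUOXA1, CYBA and CYBB. DUOX1 and CYBA reached 1 cpm in all 8 libraries, CYBB and DUOXA1 in 6, and DUOX2 in only 3, both DU145-Esrrb libraries and library b of DU145-Esrrb+DY131. DUOX2 thus passed through the group in which it was high. DUOXA2 reached 1 cpm in 1 library and NOX1, NOX4 and NOX5 in none. A gene is called altered below where the adjusted p of edgeR's quasi-likelihood test was under 0.05 and the log2 fold change (Log2FC) was at least 1 in size.

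**Figure D1:**
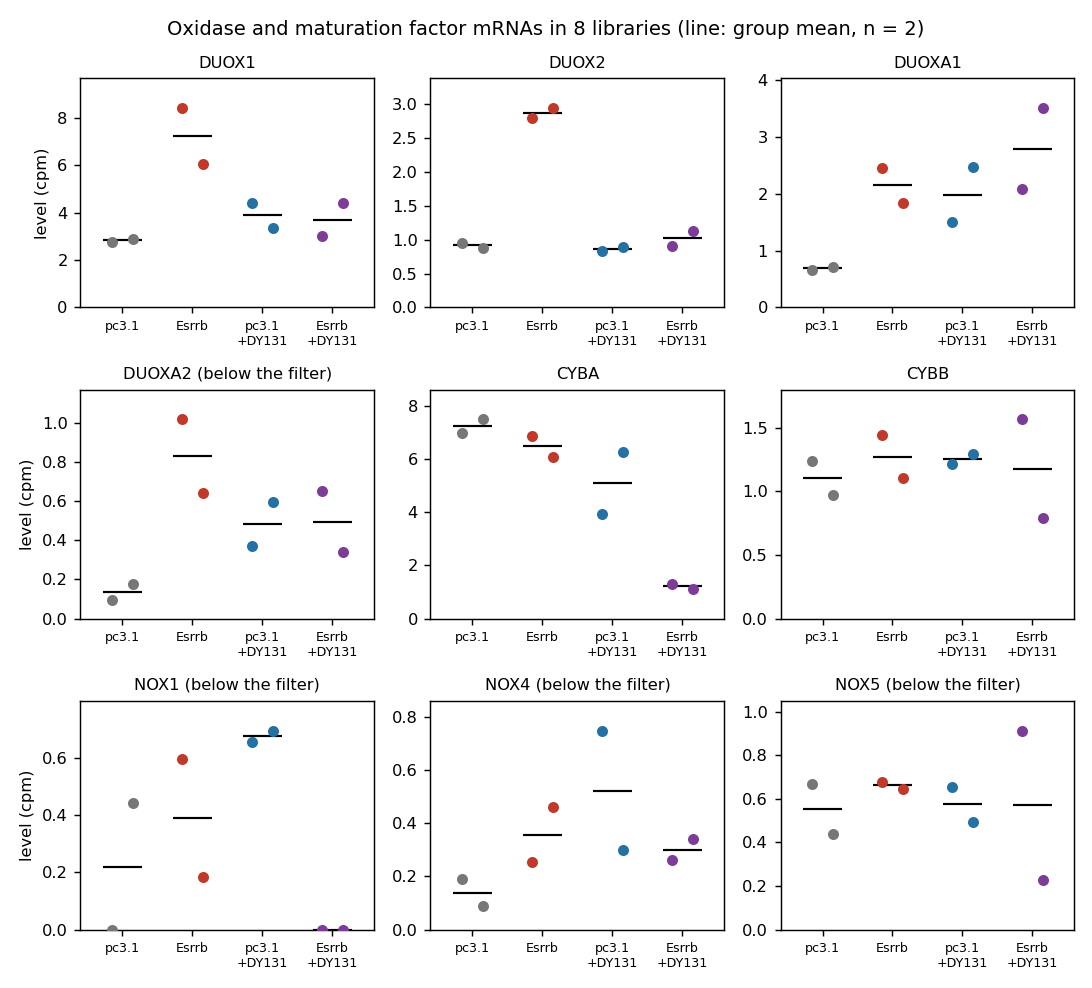
Level of each of the 9 oxidase genes in cpm (vertical axis, from 0, with its own scale in each panel) in the 8 libraries, grouped on the horizontal axis by cell pool and treatment. Points are libraries and lines are means of 2 libraries; DUOX2 stands at 2.80 and 2.94 cpm in DU145-Esrrb and at 0.841 to 1.13 cpm in the other 6 libraries, and CYBA is lowest in DU145-Esrrb+DY131.

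DUOX2, a hydrogen peroxide producing oxidase, was highest in untreated DU145-Esrrb cells. The 2 libraries of DU145-pc3.1 held 10 and 10 reads on DUOX2, and those of DU145-Esrrb held 33 and 32. DU145-pc3.1+DY131 held 9 and 9 reads, and DU145-Esrrb+DY131 held 7 and 10. All libraries other than the 2 of untreated DU145-Esrrb therefore lay at 7 to 10 reads, below both of those. In cpm with effective library sizes, the means were 0.917 ± 0.0522 in DU145-pc3.1, 2.87 ± 0.100 in DU145-Esrrb, 0.867 ± 0.0364 in DU145-pc3.1+DY131 and 1.02 ± 0.154 in DU145-Esrrb+DY131 (SD, n = 2 each). The SD between replicates is smaller than the counting error here: 10 reads alone have an exact 95% Poisson interval of 4.80 to 18.4 reads. As a description, the Log2FC of DUOX2 was 1.63 (SE 0.35) for DU145-Esrrb against DU145-pc3.1 and -1.47 (SE 0.37) for DY131 in DU145-Esrrb cells. It was -0.08 (SE 0.43) for DY131 in DU145-pc3.1 cells, and 0.24 (SE 0.45) between the pools under DY131. These are the values by which the family was chosen, and nothing is supported with them.

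DUOX1, the other hydrogen peroxide producing DUOX oxidase, was also highest in untreated DU145-Esrrb cells. On DUOX1, 29 and 33 reads were counted in DU145-pc3.1, 99 and 66 in DU145-Esrrb, 47 and 34 in DU145-pc3.1+DY131, and 23 and 39 in DU145-Esrrb+DY131. The level was 2.84 ± 0.0978 cpm in DU145-pc3.1 and 7.24 ± 1.65 cpm in DU145-Esrrb, where both libraries lay above all 6 others. It was 3.88 ± 0.721 cpm in DU145-pc3.1+DY131 and 3.70 ± 0.997 cpm in DU145-Esrrb+DY131, and these groups overlapped.

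DUOXA1, the maturation factor of DUOX1, was lowest in untreated DU145-pc3.1 cells and higher in each of the other 3 groups. Its counts were 7 and 8 in DU145-pc3.1, 29 and 20 in DU145-Esrrb, 16 and 25 in DU145-pc3.1+DY131, and 16 and 31 in DU145-Esrrb+DY131. In cpm these are 0.686 ± 0.0258, 2.15 ± 0.440, 1.99 ± 0.696 and 2.80 ± 1.00 (SD, n = 2 each). The 2 libraries of DU145-pc3.1 lay below all 6 others, and the other 3 groups overlapped one another. The levels of DU145-Esrrb+DY131 and of untreated DU145-Esrrb overlapped for DUOXA1 and did not for DUOX1.

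DUOXA2, the maturation factor of DUOX2, was below the filter. The 2 libraries of DU145-pc3.1 held 1 and 2 reads on DUOXA2, those of DU145-Esrrb 12 and 7, those of DU145-pc3.1+DY131 4 and 6, and those of DU145-Esrrb+DY131 5 and 3. Both DU145-Esrrb libraries lay above both DU145-pc3.1 libraries. With 19 reads against 3 in the summed libraries, the ratio of DU145-Esrrb to DU145-pc3.1 was 6.10, with an exact 95% counting interval of 1.80 to 32.2. For DU145-pc3.1+DY131 against DU145-pc3.1 it was 3.50, with an interval of 0.902 to 19.8. These intervals cover counting error only. They leave out variation between libraries, and several reads can come from 1 molecule. With no filter, edgeR's test gave adjusted p of 0.0721 and 0.206 for these comparisons of DUOXA2.

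Reads of the DUOX genes can be hard to separate. Of the 50-base windows of the DUOX1 transcript, 7.91% also occur in DUOX2, and of those of DUOX2, 7.15% occur in DUOX1. The ends of the maturation factor genes overlap on opposite strands, so that 38.5% of the DUOXA2 windows and 8.53% of the DUOXA1 windows are antisense to the other gene. The library kit keeps strand, but whether the counting used it is not given in the sources used here. The DUOXA2 counts in particular are uncertain for this reason.

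Among members other than DUOX2, DUOX1 and DUOXA1 rose with Esrrb in untreated cells, 2 of the 4 tested. Over all tested genes, 0.577% were called in this comparison, and 0.180% were called higher. DUOX1 had a Log2FC of 1.35 (SE 0.25, edgeR adjusted p = 0.00451), which is 2.55-fold higher and higher in 2 of 2 libraries. DUOXA1 had a Log2FC of 1.64 (SE 0.47, edgeR adjusted p = 0.0450), or 3.11-fold higher. CYBA, at 73 and 85 reads in DU145-pc3.1 and 81 and 66 in DU145-Esrrb, had a Log2FC of -0.16 with a 95% interval of -0.58 to 0.27. CYBB, at 13 and 11 against 17 and 12 reads, had a Log2FC of 0.22 with a 95% interval of -0.66 to 1.10. The median Log2FC of the 4 tested members was 0.78, against 0.0012 over all tested genes.

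The call of DUOXA1 stood close to the threshold. It held in 8 of 17 alternative settings, with adjusted p from 0.00424 to 0.329, and DESeq2 gave an adjusted p of 0.214. The call of DUOX1 held in 15 of 18 settings, DESeq2 among them. It was lost without DU145-pc3.1 replicate 1, without DU145-pc3.1 replicate 2 or without DU145-Esrrb replicate 1, where its adjusted p reached 0.109, while its Log2FC stayed between 1.09 and 1.56.

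In DU145-pc3.1 cells, which have at most 3 reads on ESRRB, DY131 altered 1 of the 4 tested members. Over all tested genes, 4.19% were called, and 1.02% were called higher. DUOXA1 rose, with a Log2FC of 1.51 (SE 0.48, edgeR adjusted p = 0.0152). This call held in 13 of 17 settings. It was lost with DESeq2, where the adjusted p was 0.0601, and without DU145-pc3.1 replicate 1, DU145-pc3.1 replicate 2 or DU145-pc3.1+DY131 replicate 2. CYBA had 42 and 63 reads in DU145-pc3.1+DY131, and its Log2FC was -0.51 (SE 0.21, edgeR adjusted p = 0.0690). DUOX1 had a Log2FC of 0.45 with a 95% interval of -0.14 to 1.05, and CYBB of 0.18 with an interval of -0.71 to 1.08. The effects of Esrrb and of DY131 on DUOXA1 in these cells share the DU145-pc3.1 libraries, so the 7 and 8 reads there enter both values. Replicates differed most in DU145-pc3.1+DY131. Over genes, the chi-square of replicates against counting error was 7.49 per degree of freedom there and 1.31 to 2.70 in the other groups. The fit shares 1 spread per gene over all groups, so errors of comparisons with this group may be too small.

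In DU145-Esrrb cells, CYBA fell with DY131, which made it the 1 member called of the 4 tested. Over all tested genes, 12.0% were called in this comparison, and 9.04% were called lower. CYBA had 81 and 66 reads in DU145-Esrrb and 10 and 10 in DU145-Esrrb+DY131, or 6.47 ± 0.570 against 1.22 ± 0.123 cpm (SD, n = 2 each). Its Log2FC was -2.41 (SE 0.36, edgeR adjusted p = 7.81e-06), a 5.31-fold lower level. The CYBA levels of DU145-Esrrb+DY131 lay below those of all 6 other libraries. This call held in all 16 settings tried, with a Log2FC from -2.51 to -1.99.

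DUOX1 also fell with DY131 in DU145-Esrrb cells in adjusted p alone, with a Log2FC of -0.95 (SE 0.25, edgeR adjusted p = 0.00352), just short of the fold change threshold. Both treated libraries lay below both untreated ones. Without DU145-Esrrb replicate 1 the Log2FC was -0.70 (edgeR adjusted p = 0.0664) and without DU145-Esrrb+DY131 library a it was -0.72 (edgeR adjusted p = 0.0598), so the fall rests on these libraries. Without DU145-Esrrb replicate 2 or DU145-Esrrb+DY131 library b, DUOX1 was called, with a Log2FC of -1.17 and -1.28. DUOXA1 had a Log2FC of 0.39 with a 95% interval of -0.34 to 1.12. CYBB had 12 and 7 reads in DU145-Esrrb+DY131 and a Log2FC of -0.15 with an interval of -1.08 to 0.78. The values of DUOX1 for Esrrb and for DY131 share the DU145-Esrrb libraries, whose 99 and 66 reads enter both.

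**Figure D2:**
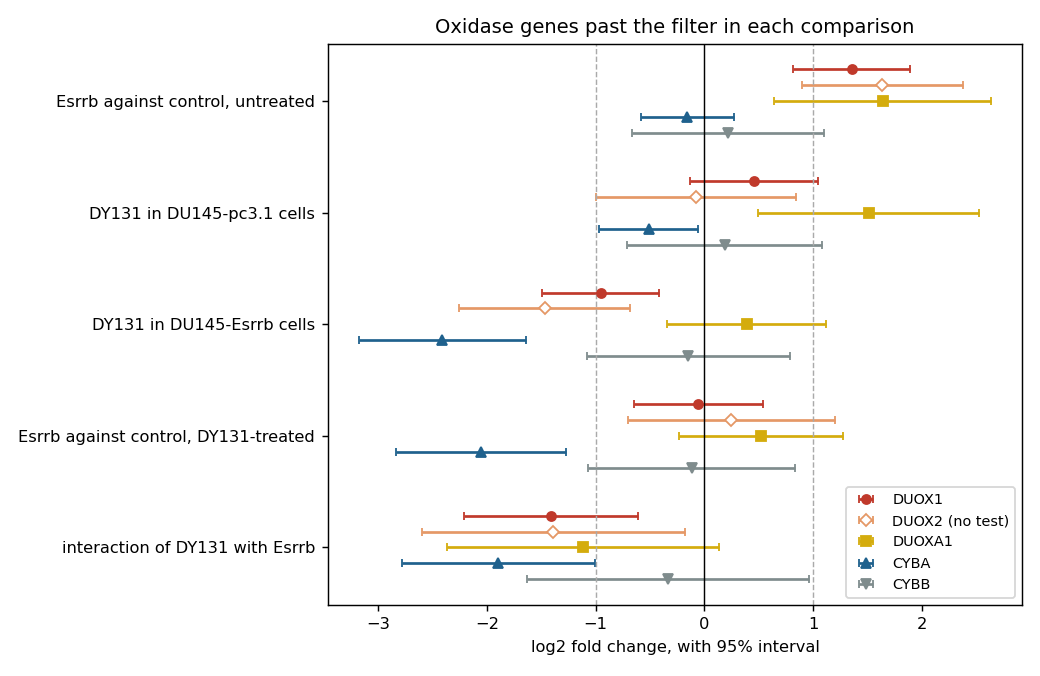
Log2FC (horizontal axis) of the 5 oxidase genes past the filter in each comparison (vertical axis), with 95% intervals from the fit over all genes. DUOX2 (open diamonds) has no test, dashed lines mark a Log2FC of 1 in size, and the intervals of CYBA in DY131-treated DU145-Esrrb cells lie wholly below -1.

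With both pools under DY131, CYBA was lower in DU145-Esrrb than in DU145-pc3.1 cells, with a Log2FC of -2.05 (SE 0.37, edgeR adjusted p = 9.56e-05). It was the 1 member called of 4, while 8.21% of all tested genes were called and 6.06% were called lower. DUOX1 and DUOXA1 had Log2FC of -0.06 and 0.52 between the treated pools, with 95% intervals of -0.65 to 0.54 and -0.24 to 1.28.

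The response to DY131 differed between the pools for 2 of the 4 tested members. This was tested as the interaction of DY131 with Esrrb, where 6.28% of all tested genes were called and 4.74% were called lower. The interaction of CYBA was -1.89 in Log2FC (SE 0.42, edgeR adjusted p = 0.00177). That of DUOX1 was -1.41 (SE 0.38, edgeR adjusted p = 0.00864), from a Log2FC of 0.45 in DU145-pc3.1 cells and -0.95 in DU145-Esrrb cells. DUOXA1 had an interaction of -1.12 with a 95% interval of -2.37 to 0.13, and CYBB one of -0.33 with an interval of -1.63 to 0.96. Both calls held in all 14 settings tried, with adjusted p of at most 0.0215 for CYBA and 0.0493 for DUOX1.

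Changes in DU145-Esrrb+DY131 moved with the exon structure of genes. The measure is the share of 50-base windows of a transcript that cross an exon junction. Its Spearman correlation with the Log2FC of DY131 in DU145-Esrrb cells was -0.375 over 13606 genes, which share the same 4 libraries. The median Log2FC went from 0.27 in the tenth of genes with the lowest share to -0.56 in the tenth with the highest share. The same correlation was -0.0378 for Esrrb in untreated cells and 0.0112 for DY131 in DU145-pc3.1 cells. For the treated pools it was -0.476, and for the interaction -0.460.

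CYBA, with 32.8% of its windows across junctions, stood at the 92.1st percentile of the tested genes. DUOX1 stood at 29.3%, DUOX2 at 25.7%, DUOXA1 at 25.2% and CYBB at 13.8%. After a correction for this trend, the Log2FC of DY131 in DU145-Esrrb cells was -1.99 for CYBA (edgeR adjusted p = 9.12e-05), so the call held. It was -0.64 for DUOX1 (edgeR adjusted p = 0.0392), and -1.25 for DUOX2 as a description. The corrected interactions were -1.47 for CYBA (edgeR adjusted p = 0.0157) and -1.08 for DUOX1 (edgeR adjusted p = 0.0467). The rise of DUOX1 with Esrrb was 1.36 after the correction.

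**Figure D3:**
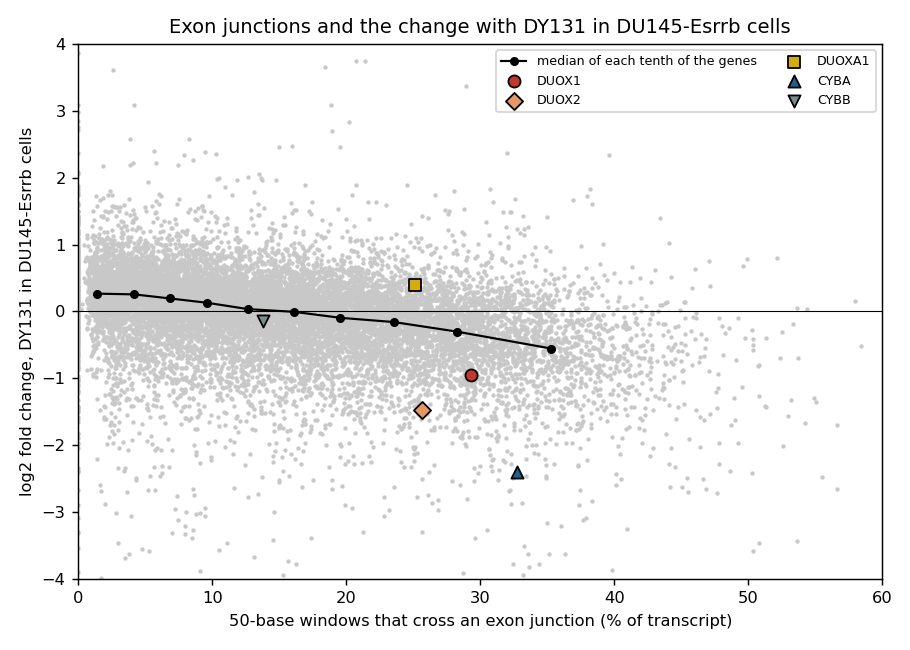
Share of 50-base windows that cross an exon junction (horizontal axis, %) against the Log2FC of DY131 in DU145-Esrrb cells (vertical axis) for 13602 genes (grey), of which 83 lie outside the axes. The black line joins the medians of 10 equal groups of genes and falls from left to right, and CYBA, DUOX2 and DUOX1 lie below it while DUOXA1 lies above it.

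NOX1, NOX4 and NOX5 were near the limit of detection. NOX1, an oxidase best known from the colon, had 0 and 5 reads in DU145-pc3.1, 7 and 2 in DU145-Esrrb, 7 and 7 in DU145-pc3.1+DY131, and 0 and 0 in DU145-Esrrb+DY131. A count of 0 in these last libraries allows a level of up to 0.391 and 0.339 cpm, taken at 3 reads. Against this floor, the 0.674 ± 0.0283 cpm (SD, n = 2) of DU145-pc3.1+DY131 was 1.85-fold higher. That ratio is no lower bound, since 7 reads alone have an exact 95% Poisson interval of 2.81 to 14.4 reads, which includes 3. DU145-pc3.1 replicate 1 was also at 0, so a library without NOX1 reads was seen in the untreated pc3.1 pool as well.

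NOX4, an oxidase that is active without further stimulation and releases mainly hydrogen peroxide, had 2 and 1 reads in DU145-pc3.1, 3 and 5 in DU145-Esrrb, 8 and 3 in DU145-pc3.1+DY131, and 2 and 3 in DU145-Esrrb+DY131. The ratio of summed reads of DU145-pc3.1+DY131 to DU145-pc3.1 was 3.85, with an exact 95% counting interval of 1.02 to 21.5. The ratio rests on 3 reads in the untreated cells, and the interval leaves out variation between libraries. With no filter, edgeR's test of NOX4 in this comparison gave an adjusted p of 0.181. NOX5 had 2 to 8 reads in every library and group means from 0.554 to 0.661 cpm, and all groups overlapped. A part of the NOX4 and NOX5 windows, 8.92% and 10.2%, also lies in other annotated genes.

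CYBB is the defining oxidase of phagocytes, yet 7 to 17 reads were counted on it in each of these epithelial libraries. Its group means ran from 1.10 to 1.27 cpm and all 4 groups overlapped. Of the 7 phagocyte markers, SPI1 was at 0 in every library and only CD14, LYZ and CD68 reached 1 cpm. CD68, at 59.3 to 93.5 cpm, made up nearly all of their summed level. The summed level of the other 6 was 2.38 to 2.67 cpm in DU145-pc3.1, 2.58 to 2.63 in DU145-Esrrb, 1.79 to 2.34 in DU145-pc3.1+DY131 and 0.782 to 0.904 in DU145-Esrrb+DY131. LYZ, lysozyme, went from 16 and 16 reads in DU145-Esrrb to 2 and 3 in DU145-Esrrb+DY131 and was called lower, with a Log2FC of -2.18 (SE 0.70, edgeR adjusted p = 0.00517). CD14 had a Log2FC of -1.36 in the same comparison (edgeR adjusted p = 0.0520). CD68 went the other way, from 74.6 ± 4.27 cpm in DU145-Esrrb to 92.1 ± 1.94 cpm in DU145-Esrrb+DY131 (SD, n = 2 each). LYZ was the 1 marker called of the 3 tested, while 9.04% of all tested genes were called lower.

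The proteins that switch the NOX enzymes on were described from a list of 15 oxidase regulators, of which 10 were tested. By edgeR's test none was called for Esrrb in untreated cells, where 0.577% of all tested genes were called. For DY131, 1 of the 10 was called in each pool, against 4.19% of all tested genes in DU145-pc3.1 and 12.0% in DU145-Esrrb cells, so the count in DU145-Esrrb cells is near the background. NOXO1, the organiser that holds the NOX1 complex together, had 15 and 16 reads in DU145-pc3.1 and 44 and 36 in DU145-pc3.1+DY131. Its Log2FC for DY131 was 1.43 (SE 0.33, edgeR adjusted p = 0.00209). In DU145-Esrrb cells NOXO1 had a Log2FC of 0.90 (edgeR adjusted p = 0.0578), which was 1.03 and called after the correction for exon junctions (edgeR adjusted p = 0.0354). The interaction of NOXO1 was -0.53 (edgeR adjusted p = 0.449). The annotated NOXO1 transcript lies over TBL3 on the opposite strand for 79.6% of its windows, so its reads cannot be told from those of TBL3 if strand was not used. NOXA1, the activator of NOX1, had 60 and 53 reads in DU145-Esrrb and 13 and 12 in DU145-Esrrb+DY131. Its Log2FC for DY131 in DU145-Esrrb cells was -1.71 (SE 0.31, edgeR adjusted p = 1.13e-04), and -1.15 after the correction for exon junctions. In DU145-pc3.1 cells the Log2FC of NOXA1 was -0.85 (edgeR adjusted p = 0.0106), and its interaction was -0.86 (edgeR adjusted p = 0.101). NOX3 and NCF4 were at 0 in all libraries. The median Log2FC of the 10 regulators was 2.9e-05 for Esrrb, -0.05 for DY131 in DU145-pc3.1 and -0.14 in DU145-Esrrb cells, all without the correction for exon junctions.

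Enzymes that remove superoxide and hydrogen peroxide were taken as a list of 24 genes, of which 20 were tested. By edgeR's test none was called for Esrrb or for DY131 in DU145-pc3.1 cells. With DY131 in DU145-Esrrb cells 2 of the 20 were called, both lower, while 9.04% of all tested genes were called lower, so this count is near the background. TXN, thioredoxin, which passes electrons to peroxiredoxins, went from 240 ± 8.96 to 50.8 ± 2.21 cpm (SD, n = 2 each). Its Log2FC was -2.24 (SE 0.09, edgeR adjusted p = 1.91e-11), against 0.08 in DU145-pc3.1 cells. GPX4, which reduces lipid peroxides, had a Log2FC of -1.02 (SE 0.07, edgeR adjusted p = 6.89e-09), which became -0.52 after the correction for exon junctions and was then no longer called. In DU145-pc3.1 cells the Log2FC of GPX4 was -0.57 (edgeR adjusted p = 7.22e-06), both before and after the correction, and the corrected interaction was 0.04 (edgeR adjusted p = 0.787). In DU145-Esrrb cells it also lost the call without DU145-Esrrb replicate 1 or without DU145-Esrrb+DY131 library a. By adjusted p alone 12 of the 20 were lower and 2 higher in DU145-Esrrb cells, where 29.5% of all tested genes were lower and 29.2% higher. The median Log2FC of the 20 was -0.43, against -0.0045 over all tested genes. These counts and this median are without the correction for exon junctions, although Log2FC moved with exon structure in this comparison. What the correction would give for the whole list was not tested. In DU145-pc3.1 cells 5 were lower and 1 higher by adjusted p alone, against 18.5% lower and 18.9% higher over all tested genes.

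Of 6 heme peroxidases, which use hydrogen peroxide as a substrate, only PXDN was tested. PXDN encodes peroxidasin, an enzyme of the extracellular matrix. It went from 37.9 ± 4.16 cpm in DU145-pc3.1 to 5.49 ± 0.686 cpm in DU145-Esrrb and stood at 15.4 ± 1.89 cpm in DU145-Esrrb+DY131 (SD, n = 2 each). Its Log2FC was -2.79 (SE 0.16, edgeR adjusted p = 6.04e-09) for Esrrb and 1.48 (SE 0.17, edgeR adjusted p = 2.33e-06) for DY131 in DU145-Esrrb cells.

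**Figure D4:**
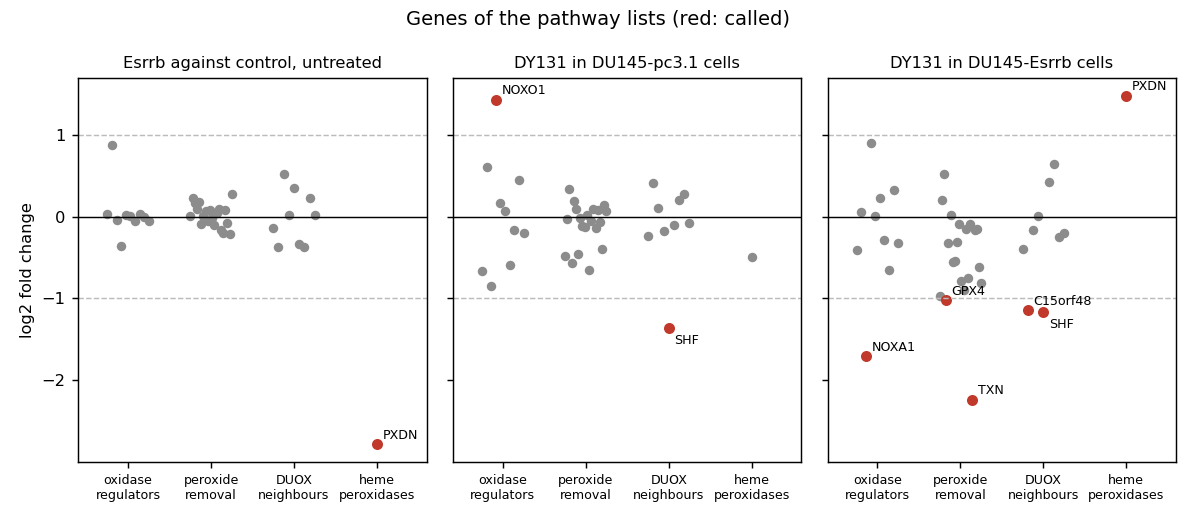
Log2FC (vertical axis) of the tested genes of 4 lists (horizontal axis) for Esrrb in untreated cells and for DY131 in each pool. Each point is 1 gene, red points with names are called, and dashed lines mark a Log2FC of 1 in size; no oxidase regulator and no peroxide removal gene is red in the left panel.

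The genes around the DUOX cluster on chromosome 15 were described from a list of 12 neighbours, of which 9 were tested. None of them was called by edgeR for Esrrb in untreated cells, a count near the background of 0.577%. For DY131, 1 was called in DU145-pc3.1 and 2 in DU145-Esrrb cells, all lower, against 3.16% and 9.04% of all tested genes called lower. By adjusted p alone, which 1.68% of all tested genes passed as higher and 2.50% as lower for Esrrb, GATM was higher, with a Log2FC of 0.53 (edgeR adjusted p = 0.00838), and SORD and C15orf48 were lower, with -0.37 each (edgeR adjusted p = 0.00345 and 0.0248). SORD is the next listed gene beside DUOX2 and SHF the one beside DUOX1. GATM and SORD were named after their values were seen.

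SHF had a Log2FC of 0.35 (edgeR adjusted p = 0.509) for Esrrb. It fell with DY131 in both pools, by 1.36 on the log2 scale in DU145-pc3.1 (SE 0.32, edgeR adjusted p = 0.00252) and by 1.16 in DU145-Esrrb cells (SE 0.30, edgeR adjusted p = 0.00248), while 12.3% of its windows lie in another annotated gene. Without DU145-Esrrb+DY131 library a, the change of SHF in DU145-Esrrb cells was -0.92 and no longer called. C15orf48 fell with DY131 in DU145-Esrrb cells, with a Log2FC of -1.15 (SE 0.11, edgeR adjusted p = 2.53e-07), and had 0.42 in DU145-pc3.1 cells. A part of its windows, 14.0%, is antisense to another gene. The median Log2FC of the 9 tested neighbours was 0.01 for Esrrb, against 0.0012 over all tested genes.

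**Figure D5:**
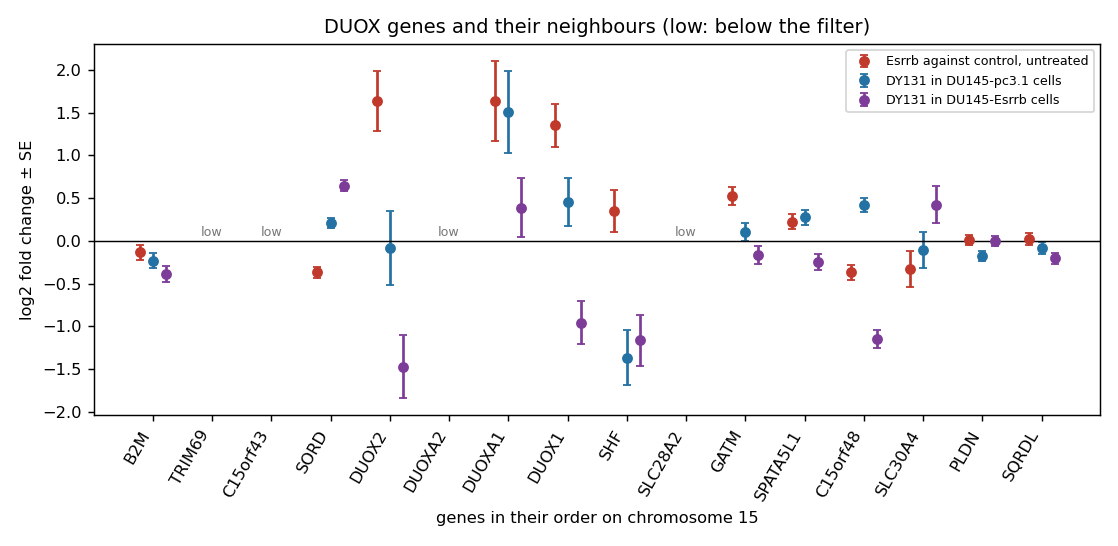
Log2FC with SE (vertical axis) of the DUOX genes and 12 listed neighbours in their order on chromosome 15 (horizontal axis, order only) in 3 comparisons. Genes marked low were below the filter. For Esrrb (red), DUOXA1 and DUOX1 lie above the tested neighbours, which lie between -0.37 and 0.53. DUOX2 is shown as a description only, since the family was chosen by its values.

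Genes whose levels ran most like those of DUOX2 over the 8 libraries were SEMA3F, BST1, ABCC6P1, ZNHIT2 and PACSIN3, with Pearson correlations of log2 cpm of 0.991, 0.979, 0.977, 0.975 and 0.964. The correlation of DUOX1 with DUOX2 was 0.873, that of DUOXA1 with DUOX2 0.312, and those of CYBA and CYBB 0.273 and 0.0915. For DUOX1 the nearest genes were PITPNC1, SDC2, MLLT11, THSD4 and TMEM68, at 0.952, 0.948, 0.925, 0.897 and 0.897. These values describe 8 libraries in 4 groups, which share depth and treatment. With Spearman's correlation in place of Pearson's, none of the 5 genes nearest DUOX2 was in the list, and SDC2 alone stayed for DUOX1. Among the members, Spearman's correlation with DUOX2 was 0.571 for DUOX1, 0.310 for DUOXA1 and -0.119 for CYBA. The pattern of DUOX2 is also the one by which the family was chosen.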

How the data were processed

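RNA from 8 cultures was sequenced as 50-base single reads from strand-keeping mRNA libraries in 1 lane. The authors used the FASTX-Toolkit for trimming and TopHat2 for mapping to hg18, and raw counts per gene came from MULTICOM-MAP. These deposited counts are whole numbers without normalization. How reads on several genes were counted is not given in the sources used here. Columns were given to groups by the sample descriptions, and p-values measure the spread between these libraries. The paper describes biological replicates of each transfection that were pooled. Whether the libraries of a vector come from 1 pool or from separate pools is not clear from it. They may thus not be independent transfections. Pool in this text means the cells of 1 vector.

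Counts were normalized with edgeR 4.0.16 (TMM) in R 4.3.3. The filter kept a gene that reached 1 cpm in 2 or more libraries. All 8 libraries entered 1 quasi-likelihood fit with 4 groups, with Benjamini-Hochberg adjustment over 13856 genes. Calls needed an adjusted p under 0.05 and a Log2FC of at least 1 in size. Levels in cpm use effective library sizes, RPKM also the transcript length, and log2 cpm a prior count of 2. The fit was tested on simulated counts.

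Transcripts came from GENCODE release 29 on GRCh38, with 22019 genes matched by RefSeq identifier, 722 by symbol and 650 unmatched. Promoters came from RefSeq on GRCh38.p14. Windows were 50 bases long. The floor was 3 reads, and intervals are 95%.

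The members, lists and tests were chosen with earlier results of these data known. The text names all members, ESRRB, at most 4 called genes per list and comparison, and the 5 genes most like DUOX2 and DUOX1. Markers with values were named after these were seen. Alternatives were DESeq2 1.42.0, edgeR's exact test, other scaling, filters and thresholds, only the compared libraries, a correction for exon junctions, a replicate block, and leaving out each library.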

Additional observations from a re-analysis of the deposited data

Results flagged for a closer look

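The response to DY131 differed between the DU145-pc3.1 and DU145-Esrrb pools, by edgeR's test of the interaction, for 2 oxidase genes, 3 genes of the pathway lists and 1 phagocyte marker. Those tested were 4 oxidase genes other than DUOX2, 10 oxidase regulators, 20 peroxide removal genes, 1 heme peroxidase, 9 DUOX neighbours and 3 phagocyte markers. Over all tested genes 6.28% were called, and the count in the pathway lists is near that share. The interaction in Log2FC was -1.89 for CYBA (edgeR adjusted p = 0.00177) and -1.41 for DUOX1 (edgeR adjusted p = 0.00864). It was -2.32 for TXN (edgeR adjusted p = 7.67e-10), -1.56 for C15orf48 (edgeR adjusted p = 6.27e-07) and 1.98 for PXDN (edgeR adjusted p = 4.17e-06), and -2.41 for LYZ (edgeR adjusted p = 0.0208). After the correction for exon junctions these were -1.47, -1.08, -2.10, -1.52, 1.98 and -2.53, and all 6 stayed past both thresholds. The call of LYZ was lost with DESeq2 and without DU145-pc3.1 replicate 2, DU145-Esrrb replicate 2, or either DU145-Esrrb+DY131 library, with adjusted p of up to 0.129. The share of windows across junctions was 32.8% for CYBA, 29.3% for DUOX1, 25.1% for TXN, 17.8% for C15orf48, 15.9% for PXDN and 9.93% for LYZ.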

How the results depend on the processing

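With DESeq2, 1 member other than DUOX2 was called for Esrrb in untreated cells in place of 2, and 0 in place of 1 for DY131 in DU145-pc3.1 cells. A filter of at least 10 counts in every library gave 1 and 0 for the same comparisons, because DUOXA1 was not tested. For DY131 in DU145-Esrrb cells 2 members were called in place of 1 with no fold change threshold or with library size alone (DUOX1 added), and with no filter (NOX1 added). With no filter NOX1 was also called between the treated pools, which gave 2 in place of 1, and for the interaction, which gave 3 in place of 2. NOX1 is at 0 in DU145-Esrrb+DY131, and its fitted value is no bound. Leaving out each library in turn gave 0 to 2 members for Esrrb, 0 to 1 for DY131 in DU145-pc3.1, 1 to 2 for DY131 in DU145-Esrrb, 1 to 1 between the treated pools and 2 to 3 for the interaction. Where 1 library was left in a group, it was assumed to vary like the others. Same-numbered libraries of different groups correlated at -0.0685 to 0.0917, so the numbers are not taken to pair them. With the replicate block, in the 6 numbered libraries, 1 member was called for Esrrb, and 1 without the block. For single genes, 619 of the Log2FC under alternatives counted as the same. Their call was unchanged or, for DUOX2, the value moved by less than the spread between replicates. Another 28 lost a call, 4 gained one, and 9 values of DUOX2 moved by more than that spread. No call changed direction. Values without a call could change sign, such as that of CYBB with DY131 in DU145-Esrrb cells, from -0.69 to 0.28. Over all genes, the number called ranged from 43 to 579 for Esrrb (80 as reported), 315 to 5185 for DY131 in DU145-pc3.1 (580), 1090 to 8128 for DY131 in DU145-Esrrb (1666), 721 to 6983 between the treated pools (1137) and 613 to 4674 for the interaction (870). Depth limits DUOX2, DUOXA1, DUOXA2, CYBB and the NOX genes, which had at most 33 reads in a library.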
